A study of Homo sapiens with 6 samples.

Results

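The cyclin-dependent kinase (CDK) inhibitors of the CIP/KIP and INK4 families, the D-type cyclins and the kinases CDK4 and CDK6 were examined in MDA-MB-231/RR cells. The members were the rows with the symbols CDKN1A, CDKN1B, CDKN1C, CDKN2C, CDKN2D, CCND1, CCND2, CCND3, CDK4 and CDK6, which are 10 of 46427 genes in the deposited gene table, with 36 of 170322 transcripts. MDA-MB-231/RR is a radioresistant derivative of MDA-MB-231, a human breast cancer line without hormone receptors or amplified HER2. Total RNA had been sequenced from 3 samples labelled as co-treated with oTR (ortho-topolin riboside, a nucleoside form of a plant cytokinin) together with melatonin, a hormone of the pineal gland, and from 3 samples labelled as control. All 6 samples were of this one line, grown in the same medium with serum. The sources used here do not give doses, exposure times or the vehicle of the controls, and single-compound libraries were not analysed here. The study's stated interest was what the pair of compounds does to the metabolome and transcriptome of these cells. Estimated counts summed to 53310808, 50569611 and 72204161 in the co-treated libraries, against 56521572, 72309015 and 71937572 in the control libraries. No label ties the 3 samples of a group to separate cultures, so the p-values refer to the spread among these 6 samples alone, which may be technical.

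D-type cyclins are made in response to growth signals and bind CDK4 or CDK6. The assembled kinases phosphorylate the retinoblastoma protein RB1, which frees E2F transcription factors to switch on genes of DNA replication. INK4 proteins bind CDK4 and CDK6 alone and block their pairing with cyclin D, whereas CIP/KIP proteins bind assembled complexes. CIP/KIP proteins inhibit CDK2 strongly, and p21 and p27 also help cyclin D and CDK4 to assemble. In breast cancer CCND1 is a common oncogene, and CDK4 and CDK6 are drug targets.

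Co-treated cells had more mRNA of 3 inhibitors and less of the kinase CDK4. CDKN1A, which encodes p21, rose 1.82-fold and CDK4 fell to 0.728 of its control level. Smaller rises were found for CDKN1B (p27), CDKN2D (p19-INK4D) and CCND1 (cyclin D1), and CDKN1C (p57) fell. CDKN2C (p18-INK4C), CCND3 and CDK6 did not pass the test, and CCND2 had too few counts to be tested. In these bulk samples, fewer cells of a kind and less RNA per cell cannot be told apart. Of the 9 members tested, 4 rose and 2 fell (edgeR quasi-likelihood test, adjusted p under 0.05 over 16557 genes by Benjamini-Hochberg). The background was high, since 33.7% of all genes tested passed, 16.6% upward and 17.1% downward. The members' median log2 fold change was 0.01, beside 0.00 for all genes tested. The groups did not overlap for 7 of the 9 tested members, as was so for 47.4% of all genes tested. In 4 of these members the co-treated values were the higher (23.3% of all genes) and in 3 the lower (24.1%).

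The 250 bases before the start site are shown for CDKN1A, CDKN1B, CDKN2D and CDK4, the 4 members whose call held in each of 20 alternative settings. They were read from RefSeq (GRCh38.p14), 5′ to 3′ on the gene's own strand, and end at the base before the start site. Capitals mark matches, on either strand, to the motifs searched.
CDKN1A, chr6:36678464-36678713, plus strand: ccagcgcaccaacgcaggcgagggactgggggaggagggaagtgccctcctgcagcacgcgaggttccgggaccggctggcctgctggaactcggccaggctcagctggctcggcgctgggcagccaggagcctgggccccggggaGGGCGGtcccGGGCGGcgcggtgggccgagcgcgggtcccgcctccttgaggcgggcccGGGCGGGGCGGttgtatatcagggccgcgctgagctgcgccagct
CDKN1B, chr12:12717118-12717367, plus strand: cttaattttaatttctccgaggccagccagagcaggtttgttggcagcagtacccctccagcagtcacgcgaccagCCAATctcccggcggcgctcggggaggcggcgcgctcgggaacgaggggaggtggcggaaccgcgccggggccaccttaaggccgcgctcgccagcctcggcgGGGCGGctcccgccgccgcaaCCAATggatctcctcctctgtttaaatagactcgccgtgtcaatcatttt
CDKN2D, chr19:10568980-10569229, minus strand: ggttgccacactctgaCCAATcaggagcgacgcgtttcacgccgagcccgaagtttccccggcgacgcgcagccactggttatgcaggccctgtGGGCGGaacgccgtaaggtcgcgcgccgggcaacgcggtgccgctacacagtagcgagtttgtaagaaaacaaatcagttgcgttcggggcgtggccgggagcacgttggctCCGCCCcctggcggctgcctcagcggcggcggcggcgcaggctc
CDK4, chr12:57752311-57752560, minus strand: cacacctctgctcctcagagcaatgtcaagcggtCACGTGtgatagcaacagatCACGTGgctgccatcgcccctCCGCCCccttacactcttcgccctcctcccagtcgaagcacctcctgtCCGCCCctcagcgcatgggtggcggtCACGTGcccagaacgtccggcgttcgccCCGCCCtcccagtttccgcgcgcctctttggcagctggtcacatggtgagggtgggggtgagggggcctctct

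Searched were the GC box GGGCGG (in 42.6% of 35116 such windows), the CCAAT box CCAAT (32.0%), the E-box CACGTG (6.34%), the TATA box TATAAA (10.7%), the AP-1 element TGACTCA (4.2%), the FOXO element GTAAACA (2.98%), the cyclic AMP element TGACGTCA (1.65%) and the E2F forms TTTCGCGC (0.439%) and TTTGGCGC (0.550%). The CDKN1A window held 4 GC boxes, the letters to which factors of the SP and KLF families bind. They begin 104, 94, 45 and 40 bases before the start, and the last pair share a base. CDK4 differed from the 3 inhibitors shown by 3 E-boxes, the letters that MYC with MAX binds, which begin 216, 196 and 101 bases before the start. It also held 3 GC boxes on the other strand. CDKN1B held 1 GC box and 2 CCAAT boxes, and CDKN2D held 2 GC boxes and 1 CCAAT box. None of the 4 windows held a TATA box, AP-1, FOXO, cyclic AMP or E2F match. A match is a run of letters and not a measured binding site. In all, 7 of the 10 members had an entry, with 12 windows between them. The E-box and the GC box were not particular to called members. CDKN2C, which was not called, held 1 E-box in each of the windows that begin at bases 50960495 and 50969995. Windows of CDKN2C and CCND3 held up to 5 GC boxes, and a CDK6 window held 3. CCND1, CCND2 and CDKN1C have no sequence shown.

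CDKN1A (gene ID 1026, chr6:36676463-36687332, plus strand, GRCh38) encodes p21, a CIP/KIP inhibitor induced by many kinds of stress. Its normalized CPM (counts scaled to a common library total with relative log expression factors) was 56.8, 65.8 and 68.8 in the co-treated libraries, against 32.5, 35.8 and 37.0 in the control libraries. The lowest co-treated library stood well above the highest control. The log2 fold change was 0.86 ± 0.07 (SE, n = 3 each; edgeR adjusted p = 2.64e-05). Among 16557 genes tested, CDKN1A had the 109th smallest p. It lay above 85.2% of the tested genes in TPM in co-treated cells and above 74.0% in control cells.

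CDKN1B (gene ID 1027, chr12:12717368-12722369, plus strand) encodes p27, which restrains CDK2 and is removed through the SKP2 ubiquitin ligase. Levels were 49.6, 46.7 and 46.8 CPM in the co-treated libraries, against 38.7, 42.8 and 39.2 CPM in the controls. Every co-treated value exceeded every control value, by 0.25 ± 0.06 in log2 units (SE, n = 3 each; edgeR adjusted p = 0.00609), a rise of 18.5%. Over 419 bases its span overlaps GPR19, a receptor gene on the other strand at 0.974 TPM in co-treated and 1.22 TPM in control cells.

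CDKN1C (gene ID 1028, chr11:2883218-2885775, minus strand) encodes p57, an imprinted CIP/KIP inhibitor active in development and growth restraint. It was the rarest of the tested members, at 3.18, 3.64 and 4.10 CPM in the co-treated libraries, against 4.61, 4.73 and 4.63 CPM in the controls. These values rest on 173 to 301 estimated counts in co-treated and 256 to 337 in control libraries. The groups did not overlap, and the control libraries spread far less than the co-treated ones. The log2 fold change was -0.35 ± 0.11 (SE, n = 3 each; edgeR adjusted p = 0.0348). The call was weak: it was lost without co-treated replicate 1 (-0.26, edgeR adjusted p = 0.114), co-treated replicate 2 (-0.35, 0.0783), control replicate 1 (-0.36, 0.0667), control replicate 2 (-0.34, 0.0833) or control replicate 3 (-0.36, 0.0730). It was made in 8 of 20 alternative settings, and the direction was downward in all 20.

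CDKN2D (gene ID 1032, chr19:10566460-10568979, minus strand) encodes p19-INK4D, an INK4 inhibitor of CDK4 and CDK6. Its levels were 17.7, 19.8 and 19.1 CPM in the co-treated libraries, against 15.4, 16.0 and 14.8 CPM in the controls. All co-treated values were the higher, by 0.29 ± 0.07 in log2 units (SE, n = 3 each; edgeR adjusted p = 0.00695). CDKN2C (gene ID 1031, chr1:50968695-50974634, plus strand), which encodes the related p18-INK4C, was at 43.4, 44.1 and 44.3 CPM in co-treated and 45.2, 44.9 and 49.1 CPM in control libraries. Its groups did not overlap, but the gap between the nearest libraries was small and the gene did not pass the test (-0.08 ± 0.05 log2, SE, n = 3 each; edgeR adjusted p = 0.261). The other INK4 genes, CDKN2A (p16) and CDKN2B (p15), were listed at 0 in all 6 libraries. MDA-MB-231 is known to have lost that locus.

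CCND1 (gene ID 595, chr11:69641156-69654474, plus strand) encodes cyclin D1. It was by far the most abundant D-type cyclin, at 520, 513 and 519 CPM in the co-treated libraries, against 466, 480 and 476 CPM in the controls. Each group was tight and they did not overlap, yet the rise was only 9.16% (0.13 ± 0.04 log2, SE, n = 3 each; edgeR adjusted p = 0.0281). The call was lost without co-treated replicate 1 (0.12, edgeR adjusted p = 0.0518), co-treated replicate 3 (0.12, 0.0878), control replicate 1 (0.11, 0.124) or control replicate 3 (0.13, 0.0660). The direction was upward in all 20 alternatives, of which 15 called it.

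CCND3 (gene ID 896, chr6:41934933-42048894, minus strand), cyclin D3, was at 54.6, 60.1 and 62.0 CPM in co-treated and 57.8, 60.8 and 61.1 CPM in control libraries. The groups overlapped, and the log2 difference of -0.02 ± 0.06 (SE, n = 3 each; edgeR adjusted p = 0.779) was smaller than its error. CCND2 (gene ID 894, chr12:4273762-4305353, plus strand), cyclin D2, had estimated counts of 2, 0 and 0 in the co-treated libraries, against 0, 6 and 10 in the controls. At this depth no difference in CCND2 was detectable, and it stayed below the count filter.

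CDK4 (gene ID 1019, chr12:57747727-57752310, minus strand) is a catalytic partner of D-type cyclins. It was at 146, 156 and 159 CPM in the co-treated libraries, against 201, 213 and 219 CPM in the controls. All co-treated libraries lay far below all controls, and the log2 fold change was -0.46 ± 0.05 (SE, n = 3 each; edgeR adjusted p = 0.000105). CDK4 shares 2493 bases of its span with TSPAN31, a tetraspanin gene on the opposite strand, and the sources used here do not say whether counting used strand, so reads in that stretch cannot be told apart. TSPAN31 was at 15.6 ± 1.17 CPM in co-treated and 12.5 ± 1.24 CPM in control cells (SD, n = 3 each), and rose (0.32 ± 0.09 log2, SE; edgeR adjusted p = 0.0158), the opposite direction to CDK4.

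CDK6 (gene ID 1021, chr7:92604921-92836573, minus strand), the sister kinase, was at 106, 98.1 and 90.9 CPM in co-treated and 102, 106 and 86.3 CPM in control libraries. The ranges overlapped almost wholly, with a log2 difference of 0.01 ± 0.08 (SE, n = 3 each; edgeR adjusted p = 0.968). Its standard error was the largest among the kinases and cyclins tested.

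**Figure D1:**
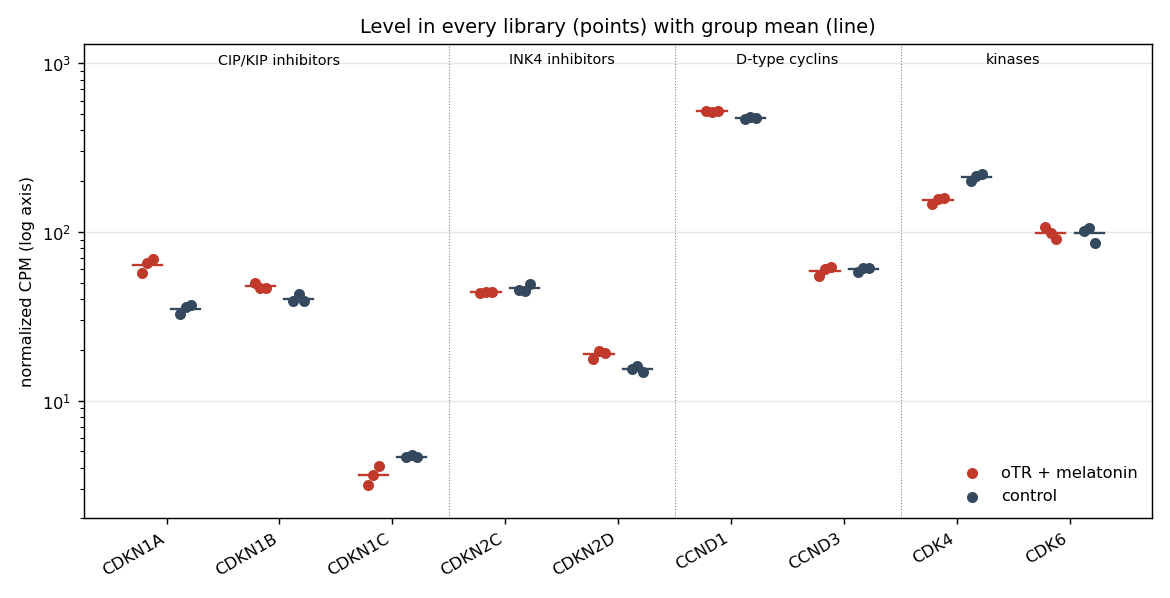
Normalized CPM (log axis) of the 9 tested genes, with a point for each library and a line at the group mean; oTR plus melatonin in red, left of control in dark blue. CDKN1A stands higher (56.8 to 68.8 against 32.5 to 37.0 CPM) and CDK4 lower (146 to 159 against 201 to 219 CPM) in co-treated cells, while CDK6 and CCND3 overlap.

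**Figure D2:**
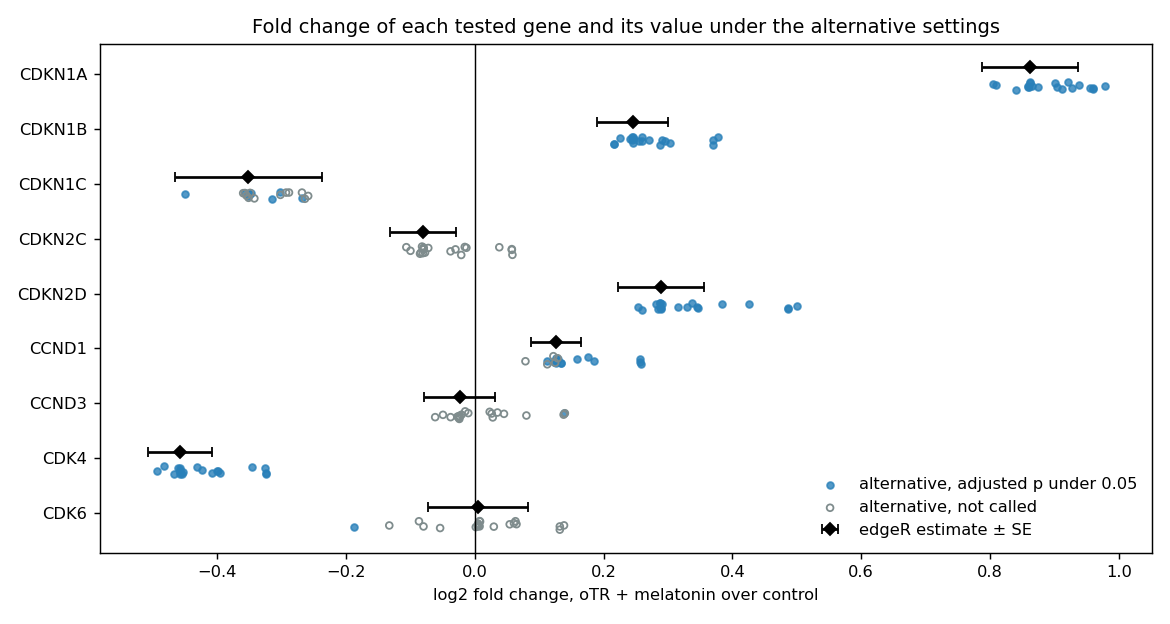
Log2 fold change of co-treated over control cells for the 9 tested genes: black diamonds with bars are the edgeR estimate ± SE, and circles are the 20 alternative settings, filled where the adjusted p was under 0.05. CDKN1A, CDKN1B, CDKN2D and CDK4 are filled throughout, whereas CCND3, CDK6 and CDKN2C have circles on both sides of 0.

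Across 20 alternative normalizations, filters, tools and left-out libraries, CDKN1A stayed between 0.80 and 0.98 on the log2 scale and CDK4 between -0.49 and -0.32. CDKN1B ranged from 0.22 to 0.38 and CDKN2D from 0.25 to 0.50. All 4 were called in the same direction in each of the 20. The signs of CCND3, CDK6 and CDKN2C depended on the setting, so no direction is given for them.

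TPM, which is per length, allows the levels of different genes to be set in order. On this scale the median of all tested genes was itself shifted by 0.09 (log2(TPM + 1), co-treated over control), so the order of genes and the ratios within libraries are read from it, and where transcripts are given in TPM for both groups the shift is part of their difference. In co-treated cells the order was CCND1 (283 ± 6.03 TPM, SD, n = 3), CDK4 (191 ± 5.05), CDKN1A (69.9 ± 5.61), CCND3 (68.3 ± 3.36), CDKN2C (57.7 ± 1.63), CDKN1B (45.9 ± 2.36), CDKN2D (35.4 ± 1.86), CDK6 (19.6 ± 1.87), CDKN1C (4.602 ± 0.394) and CCND2 (0.00 ± 0.01). Of the neighbours in that order, only CDKN1A and CCND3 had overlapping ranges. In control cells the order was CDK4 (240 ± 7.75 TPM, SD, n = 3), CCND1 (237 ± 5.30), CCND3 (61.9 ± 0.960), CDKN2C (55.4 ± 1.67), CDKN1A (35.4 ± 2.31), CDKN1B (35.3 ± 2.35), CDKN2D (25.1 ± 1.95), CDK6 (17.8 ± 2.21), CDKN1C (5.74 ± 0.137) and CCND2 (0.02 ± 0.02). There the overlapping neighbours were CDK4 with CCND1 and CDKN1A with CDKN1B. CCND1 thus stood clear above CDK4 in co-treated cells and level with it in control cells, and CDKN1A ranked above CDKN2C in co-treated cells but below it in control cells.

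Ratios within a library do not depend on how libraries are scaled to each other. A length or GC trend that differs between libraries can still shift them. Summed TPM of the 5 inhibitors per 100 TPM of CDK4 plus CDK6 was 101 ± 0.175 in co-treated and 61.0 ± 1.22 in control cells (SD, n = 3 each). Summed D-type cyclin TPM over that of the 2 kinases was 1.67 ± 0.0409 in co-treated and 1.16 ± 0.0244 in control cells. In both measures every co-treated library exceeded every control. CDKN1A made up 58.0% ± 2.96 of CIP/KIP TPM in co-treated and 46.3% ± 1.47 in control cells, and CDKN1B 38.2% ± 3.17 in co-treated and 46.2% ± 1.295 in control cells. CDKN1C made up 3.82% ± 0.218 in co-treated and 7.52% ± 0.406 in control cells. CIP/KIP TPM per 100 TPM of D-type cyclins was 34.2 ± 1.33 in co-treated and 25.6 ± 1.00 in control cells. CDK6 made up 9.31% ± 1.02 of the kinase TPM in co-treated and 6.93% ± 0.867 in control cells. With length and GC trends removed, the log2 fold changes of CDK6 and CDK4 were -0.19 and -0.35. Without removal they were 0.01 and -0.46, so their distance depended on those trends, for which the share was not adjusted. CCND1 made up 80.6% ± 1.08 of D-type cyclin TPM in co-treated and 79.3% ± 0.480 in control cells, a nearly equal share. These sums were put together with the single-gene results known and are given as a description, and they count mRNA rather than protein.

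**Figure D3:**
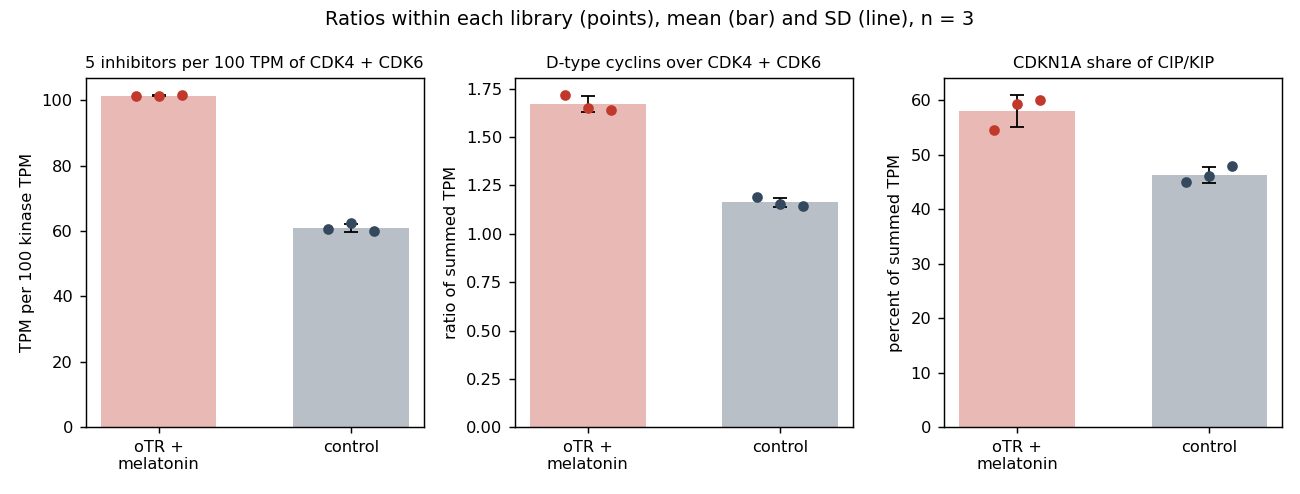
Ratios of summed TPM within each library (points), with the mean (bar) and SD (line) of 3 libraries per group: inhibitors per 100 TPM of kinases, D-type cyclins over kinases, and the percentage of CIP/KIP TPM from CDKN1A. Co-treated libraries lie above controls in all panels (101 against 61.0, 1.67 against 1.16 and 58.0% against 46.3%, as means).

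Transcript estimates showed from which start site CDKN1A was read. Its 12 annotated transcripts begin at 2 positions, and the 7 that begin at base 36678714, where the CDKN1A sequence above ends, held 63.3, 72.5 and 73.7 TPM in co-treated and 32.8, 37.4 and 36.0 TPM in control libraries. The 5 that begin upstream, at base 36676463, held at most 0.0928 TPM in any library. NM_000389 alone held 60.7 ± 2.38 TPM in co-treated and 30.7 ± 1.59 TPM in control cells (SD, n = 3 each). The rise was thus read from the downstream start in every library. CDKN1B, CCND1, CCND2 and CDK4 have 1 transcript each in the table.

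For CDKN1C the estimates were divided unevenly among 5 transcripts. NM_001362475, of 1236 bases where the others have 1768 to 1935, was listed at 0 in all 3 co-treated libraries, against 1.96, 1.43 and 1.69 TPM in the controls. NM_000076 was at 0.0893, 0.688 and 3.18 TPM in co-treated and 3.14, 2.97 and 2.94 TPM in control libraries. NM_001122630 was at 3.21, 3.99 and 0.754 TPM in co-treated and 0.186, 0.616 and 0.436 TPM in control libraries. Co-treated replicate 3 stood apart from the other co-treated libraries in both and resembled the controls for NM_000076. All 5 end at the same base, and how reads were shared out among them also bears on the summed TPM, which is per length, but not on the summed count.

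CDKN2D has a pair of transcripts, which encode the same protein. NM_079421 was at 26.3, 27.9 and 19.4 TPM in the co-treated libraries, against 7.67, 15.7 and 9.21 TPM in the controls, without overlap. NM_001800 was at 8.23, 9.65 and 14.9 TPM in co-treated and 17.03, 11.5 and 14.1 TPM in control libraries, with overlap. The higher CDKN2D level in co-treated libraries thus lay in the values of NM_079421. Transcript usage, tested with diffSplice of limma, was not called for any of the 6 members with at least 2 tested transcripts (2.49% of 9961 genes were called). Adjusted p was 0.113 for CDKN2D, 0.126 for CDKN1C, 0.691 for CCND3, 0.851 for CDK6, 0.974 for CDKN2C and 0.988 for CDKN1A. CDKN1C was called by diffSpliceDGE of edgeR (adjusted p = 0.0357) and by diffSplice without co-treated replicate 3 (0.00126). That library resembled the controls for NM_000076 but, like the other co-treated libraries, was at 0 for NM_001362475. CDKN1C was called in none of the other 8 alternatives (diffSplice adjusted p 0.126 to 0.368). On simulated data diffSplice recovered 36 of 97 genes with swapped transcript levels and made 8 false calls. There diffSpliceDGE recovered 34 and made 39 false calls. Neither the missing usage calls nor the diffSpliceDGE call is therefore read further. The edgeR test of single transcripts called none of the members' transcripts, in a background of 0.00153% of 65252 called in either direction and 0.00153% called lower, a background too low to read a missing call from, so transcripts are given as values.

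For CDK6, NM_001145306 held most of the TPM, at 13.5, 16.8 and 12.7 in co-treated and 13.6, 13.8 and 11.3 in control libraries. Its other main transcript, NM_001259, was at 6.58, 2.71 and 5.03 TPM in co-treated and 5.02, 5.65 and 4.03 TPM in control libraries, so neither separated the groups. CDKN2C was likewise split between NM_001262, at 40.3, 42.5 and 39.2 TPM in co-treated and 39.9, 36.6 and 41.7 TPM in control libraries, and NM_078626, at 18.6, 13.4 and 19.2 TPM in co-treated and 13.6, 19.9 and 14.6 TPM in control libraries. The main CCND3 transcript, NM_001760, was at 45.6, 31.3 and 46.0 TPM in co-treated and 35.7, 14.8 and 44.8 TPM in control libraries. Control replicate 2 was the low one there, while its CCND3 sum (62.1 TPM) was between those of the other controls, so the estimate was spread over other transcripts in that library.

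**Figure D4:**
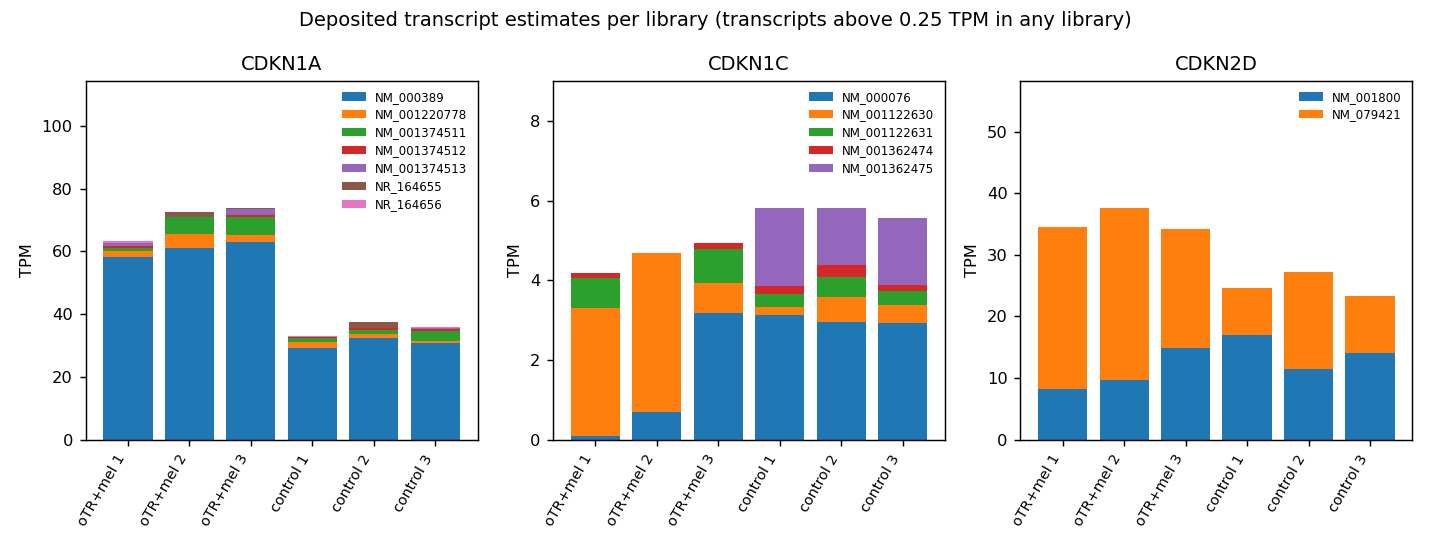
Stacked bars of deposited TPM for the transcripts of CDKN1A, CDKN1C and CDKN2D in each library (transcripts above 0.25 TPM in any library), co-treated libraries left of controls. NM_000389 forms most of each CDKN1A bar (60.7 against 30.7 TPM as means), NM_001362475 of CDKN1C is absent from the co-treated bars, and NM_079421 of CDKN2D is taller in them (19.4 to 27.9 against 7.67 to 15.7 TPM).

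Partners and regulators of these genes were read from the same fit. Of all 16557 genes tested, 16.6% rose and 17.1% fell in this fit. On the log2(TPM + 1) scale 4516 of them rose and 1339 fell, and with library size alone 3816 rose and 2065 fell. With the length trend removed 2495 rose and 2915 fell, and with length and GC trends removed 2757 rose and 3136 fell. List counts near these shares are not read as a result about the list. Among 18 tested partners at the G1 to S transition, 2 rose and 7 fell, with a list median of -0.03 (log2). E2F4, the E2F that acts with pocket proteins to hold genes off, was at 98.04 ± 4.65 CPM in co-treated and 127 ± 3.45 CPM in control cells (SD, n = 3 each) and fell by 0.37 on the log2 scale (edgeR adjusted p = 0.000267). CDC25A, the phosphatase that activates CDK2, fell by 0.31 and the phosphatase gene CDKN3 fell by 0.31. E2F1 rose by 0.16 (edgeR adjusted p = 0.0402), a call made in 15 of 20 alternatives. The other gene that rose was the repressor E2F7, by 0.30, called in all 20 and named after its value was seen. RB1 (0.17 ± 0.07 log2, SE; edgeR adjusted p = 0.100), CCNE2 (0.14 ± 0.06; 0.0791), CCNE1 (0.05 ± 0.10; 0.744) and CDK2 (-0.08 ± 0.04; 0.193) did not pass, so CDK2 and its E-type cyclins had no call. With library size alone 5 of the partners rose and 5 fell, and on the log2(TPM + 1) scale 6 rose and 3 fell.

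Of 25 E2F target genes of S phase, 1 rose and 13 fell, with a median of -0.12. MCM2, a subunit of the replicative helicase, was at 162 ± 11.9 CPM in co-treated and 227 ± 13.2 CPM in control cells (SD, n = 3 each) and fell by 0.48 on the log2 scale (edgeR adjusted p = 0.000236). UHRF1, which maintains DNA methylation, fell by 0.45, and MCM5, of the same helicase, fell by 0.40. On the log2(TPM + 1) scale 1 rose and 4 fell, and the median was 0.00, beside 0.09 for all genes on that scale. With library size alone 2 rose and 8 fell. After removal of the length trend 1 rose and 12 fell, and after removal of length and GC trends 1 rose and 12 fell.

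In the DREAM and MuvB list, the complex that represses cell cycle genes when CDKs are inhibited, 1 of 14 rose and 4 fell, but 4 rose and 2 fell on the log2(TPM + 1) scale. Its called genes with the largest changes were E2F4, RBBP4 (fell by 0.25) and MYBL2 (fell by 0.25), the MYB protein that replaces E2F4 in the activating form. E2F4 and TFDP1, which fell, were also counted among the G1 to S partners, so the counts of these lists are not separate. Among 12 other cell cycle cyclins and CDKs, 4 rose and 1 fell. CCNG2, a cyclin linked to arrest, was at 26.8 ± 0.129 CPM in co-treated and 17.3 ± 2.21 CPM in control cells (SD, n = 3 each) and rose by 0.63 on the log2 scale (edgeR adjusted p = 0.000315). CCNI rose by 0.30, and CDK1, the mitotic kinase, rose by 0.27.

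Of 11 genes that activate, phosphorylate or fold CDKs, 1 rose and 5 fell. Among those that fell was CDC25A, which was also counted among the G1 to S partners. CDC37, the co-chaperone that delivers CDK4 and CDK6 to HSP90, was at 262 ± 25.98 CPM in co-treated and 363.5 ± 29.9 CPM in control cells (SD, n = 3 each) and fell by 0.47 on the log2 scale (edgeR adjusted p = 0.000958). CCNH, the cyclin of the CDK-activating kinase, fell by 0.38, and HSP90AB1 fell by 0.32. Of 17 genes for turnover of cyclins and inhibitors, 1 rose and 3 fell, but 6 rose and 1 fell on the log2(TPM + 1) scale and 3 rose and 2 fell with library size alone. SKP2, the ubiquitin ligase subunit that recognises p27 and p21, was at 67.7 ± 2.75 CPM in co-treated and 86.5 ± 5.62 CPM in control cells (SD, n = 3 each) and fell by 0.35 on the log2 scale (edgeR adjusted p = 0.000857). GSK3B, a kinase that marks cyclin D1 for removal, rose by 0.27, and DDB1, a ubiquitin ligase adaptor, fell by 0.24. The signs of the medians of the turnover, DREAM and G1 to S lists depended on the scaling (-0.05, -0.03 and -0.03 here, and 0.07, 0.12 and 0.10 on the log2(TPM + 1) scale). The median of all genes was 0.00 here and 0.09 on that scale, so the list medians moved along with it.

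Among 20 transcription factors known to act on CDKN1A, 4 rose and 1 fell, with 7 and 1 on the log2(TPM + 1) scale, 4 and 4 with the length trend removed and 4 and 5 with length and GC trends removed. The one that fell in the edgeR fit without these removals was MYC, which represses CDKN1A through ZBTB17 and activates CDK4, at 124 ± 4.76 CPM in co-treated and 180 ± 6.60 CPM in control cells (SD, n = 3 each), or -0.53 ± 0.05 in log2 units (SE; edgeR adjusted p = 3.22e-05). KLF6, a GC-box factor, rose by 0.43, and FOXO1, an activator of CDKN1A and CDKN1B, rose by 0.42. In the edgeR fit 15 of the 20 had no call. SP1 and SP3, of the SP family, were named after their values were seen. They were called in the direction of the edgeR fit in 2 and 7 of 20 alternatives, and changed sign in 7 and 1.

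Among 26 genes that feed into CCND1 transcription, 8 rose and 7 fell. On the log2(TPM + 1) scale 9 rose and 3 fell, and with the length trend removed 5 rose and 11 fell, so no direction is given for the list. FOS was at 6.09 ± 2.04 CPM in co-treated and 2.93 ± 0.723 CPM in control cells (SD, n = 3 each) and rose by 1.06 on the log2 scale (edgeR adjusted p = 0.00462); its standard error, 0.23, was the largest of the genes named from the lists. JUNB rose by 0.64 and JUND by 0.54, like FOS subunits of AP-1. The more abundant AP-1 subunits FOSL1 (190 ± 8.08 CPM in co-treated and 254 ± 5.41 CPM in control cells, SD, n = 3 each) and JUN (148 ± 3.03 CPM in co-treated and 184 ± 4.91 CPM in control cells), named after their values were seen, fell by 0.42 (edgeR adjusted p = 0.000102) and 0.32 (0.000343) on the log2 scale.

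**Figure D5:**
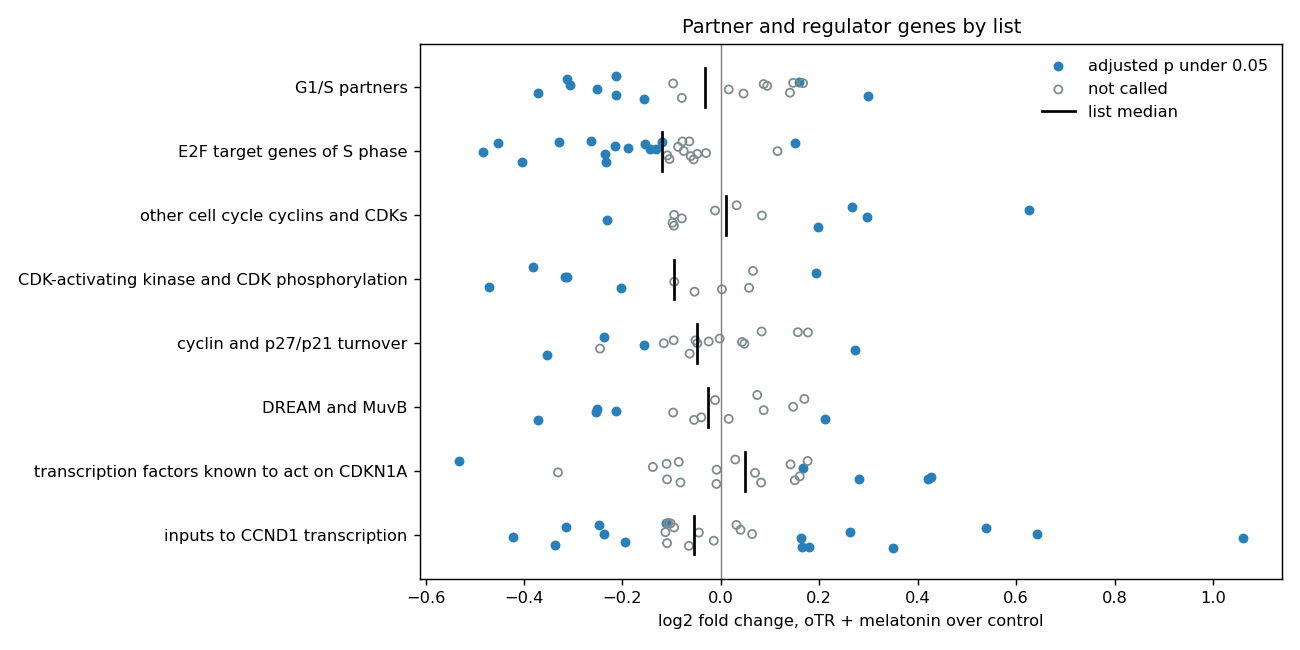
Log2 fold change of co-treated over control cells for each tested gene in 8 lists of partners and regulators, filled where the edgeR adjusted p was under 0.05, with a black line at each list's median. The E2F target genes lie mostly below 0 (1 rose, 13 fell). On the log2(TPM + 1) scale their median is 0.00, beside 0.09 for all genes tested.

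The genes whose profile over the 6 libraries was most like that of 3 members were sought among 10706 genes, by the root mean square difference of centred log2 CPM. Nearest to CDKN1A was BAIAP3 (difference 0.0391), followed by TRNP1 and ID2, and the fifth was CCDC85B (0.0817). Nearest to CDK4 was HDGF (0.0161), followed by IL6R, TGM2, MRTO4 and STOML2 (0.0261), and nearest to CDKN1B was BRI3BP (0.00777), followed by SLC39A9, PPP1R15B, ABCB10 and ZC3H12C (0.0222). This difference grows with the size of a gene's change, so it is not compared between the 3 members.

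The labelled line was checked against markers. Of 10 genes high in MDA-MB-231, 9 were abundant, with VIM the highest (2224 CPM in co-treated, 2061 CPM in control cells), and S100A4 was low (4.13 CPM in co-treated, 3.40 CPM in control cells). Of 9 genes thought to be at or near 0 there, 4 were listed at 0 in all 6 libraries, whereas ERBB2 was at 70.1 CPM in co-treated and 65.3 CPM in control cells. Their summed TPM ran from 40.0 to 43.2 in co-treated and from 34.2 to 36.6 in control libraries. Markers of other cell types were low or at 0, with summed TPM of 0.920 to 1.15 in co-treated and 0.724 to 0.825 in control libraries for endothelial cells, 7.05 to 7.51 in co-treated and 7.45 to 9.36 in control libraries for fibroblasts, and 30.7 to 38.2 in co-treated and 32.1 to 33.3 in control libraries for immune cells. The last was nearly all CD68 (25.7 CPM in co-treated, 25.98 CPM in control cells).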

How the data were processed

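Total RNA of 6 samples was sequenced, and groups and replicate numbers come from the sample titles. Trimmomatic 0.38, HISAT2 2.1.0, Bowtie2, SAMtools 1.9, StringTie 2.1.3b and GRCh38 are named without roles, per the submitters' processing notes. Columns that begin with Con were taken as control, and those with Mo as melatonin with oTR, which no label spells out. The authors deposited gene and transcript tables whose Read_Count columns hold estimated counts: all 274777 low, non-zero transcript values checked were FPKM times length, rounded up (within 0.06 counts). For all 46427 genes the gene value was its transcripts' sum. The deposited TPM served for levels, transcripts and alternative tests, while the deposited FPKM served for that check alone. Library totals ran from 50569611 to 72309015 estimated counts. Between replicate pairs the estimated counts had a chi-square over its degrees of freedom of at least 11.6. Estimated counts are not read counts, so this value cannot be set against counting noise.

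Genes were kept by filterByExpr (minimum count 10), which left 16557, and tested with edgeR 4.0.16 (quasi-likelihood, relative log expression factors, which the labels name) in R 4.3.3, at a Benjamini-Hochberg adjusted p under 0.05. CPM uses the same factors. The members and lists were chosen with earlier results of these data known. All members are described. In each list the genes named are the 3 called genes with the largest change at 1 CPM or more, plus partners by role; some list genes and 1 list are not reported here. Most-like genes needed a mean of 5 CPM and used the 3 members with the smallest adjusted p.

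Alternatives were TMM factors, library size alone, library sizes without the 20 most abundant genes, DESeq2 1.42.0, limma-voom (limma 3.58.1), no count filter or a minimum count of 30, leaving out each library, a replicate block, limma on log2(TPM + 1) and log2(TPM + 0.1), and removal of a length trend. Removal of a GC trend, alone or with length, was chosen after seeing the data, and GC content was found for 87.8% of the tested genes. The tests were checked on simulated data. The planned edgeR test on transcripts had too little power there, so transcripts are described by their values. Transcript usage was tested with diffSplice of limma after voom, with diffSpliceDGE of edgeR as an alternative. Figures were drawn with matplotlib 3.10.9.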

Additional observations from a re-analysis of the deposited data

How the results depend on the processing

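CDKN1A, CDKN1B, CDKN2D and CDK4 kept their direction and call under all 20 alternatives. Between 4 and 7 members were called (4 to 5 with a library left out), and between 4178 and 6367 genes (4223 to 4820). CDKN1C (log2 fold change) lost its call when library sizes alone were used (-0.29), without the 20 most abundant genes (-0.30), with DESeq2 (-0.35), without the count filter (-0.35), on log2(TPM + 1) without a filter (-0.27), and after removal of the length trend (-0.29) or of length and GC trends (-0.26); its values with 1 library left out ran from -0.45 to -0.26. CCND1 lost its call after removal of the length trend (0.079), and its left-out values ran from 0.11 to 0.13. CCND3 turned positive with library size alone (0.035), without the 20 most abundant genes (0.026), on log2(TPM + 1) (0.14 with and without the filter), on log2(TPM + 0.1) (0.14), and after removal of length (0.023), GC (0.045) or both trends (0.080), with left-out values from -0.061 to 0.028; it passed the threshold once, on log2(TPM + 1) (limma adjusted p = 0.0492). CDK6 turned negative after removal of length (-0.13), GC (-0.087) or both trends (-0.19, edgeR adjusted p = 0.00495), with left-out values from -0.079 to 0.065. CDKN2C turned positive on log2(TPM + 1) (0.058 with and without the filter), on log2(TPM + 0.1) (0.059) and after removal of both trends (0.038), with left-out values from -0.11 to -0.04. The cause of these changes was not tested.

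The even split of all calls (2743 higher, 2835 lower) depends on scaling: 3816 and 2065 with library size alone, 3635 and 2172 without the 20 most abundant genes, 4516 and 1339 on log2(TPM + 1), 3210 and 968 on that scale without a filter, and 4490 and 1338 on log2(TPM + 0.1). The median of all genes then lay at 0.06, 0.05, 0.09, 0.09 and 0.12. With the replicate number as a block 6367 genes and 6 members were called. Deviations from the group mean correlated at 0.07, 0.00 and -0.04 between same-numbered samples, and at -0.05 to 0.06 between the others. With groups of 3, these values cannot decide whether a number marks a shared culture or day, and no label says so. Transcripts called were 1, or 0 with the replicate block and 0 to 1 with a library left out. Genes with changed usage were 248, against 162 with the replicate block, 162 with diffSpliceDGE and 170 to 278 with a library left out. Depth limits CCND2, which could not be tested.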
